A study of Mus musculus with 30 samples.

Results

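The 10 canonical astrocyte genes were followed in the transcriptome of CD11b+ cells from mouse brain: Gfap, Aqp4, Slc1a2, Slc1a3, Aldh1l1, Gja1, Sox9, S100b, Aldoc and Ptn. They were taken by gene symbol and account for 13 of the 14225 transcripts in the table (10 of 13483 symbols), because Gfap, Slc1a2 and Aldoc each have 2 rows. Whole brains of C57BL/6J mice were dissociated, CD11b+ cells were collected on magnetic beads, and polyadenylated RNA was sequenced without strand information. The mothers had been injected during gestation with saline (Saline) or with poly(I:C), a synthetic mimic of viral RNA that induces maternal immune activation (MIA). Offspring were sampled at embryonic day 17 (E17) and postnatal days 7, 20 and 60 (P7, P20, P60), with 3 libraries in each of 10 groups. At P60 each prenatal group was split into mice on control diet (CTRL) and mice whose microglia had been depleted with the CSF1R inhibitor PLX5622 after weaning and had then repopulated (MG-REP). A library stood for 1 litter at E17, 3 pooled brains at P7 and 1 brain at P20 and P60, with male and female offspring in the study. By Xist and Y-linked RNA, sex was uneven between ages and between CTRL and MG-REP, as given below. The values are TPM, transcript abundances that are scaled to transcript length and library size.

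Astrocytes are the glial cells that clear synaptic glutamate, buffer potassium and water, and couple to each other through gap junctions. They arise from radial glia around birth and mature over the first postnatal weeks. Their transcripts are not markers of microglia. In a CD11b+ preparation they may report RNA that came with astrocytes, their fragments or other cells that express these genes. They may also report RNA that the collected cells themselves held. In bulk RNA, fewer cells of a type and less RNA per cell cannot be told apart. The members cover glutamate uptake (Slc1a3, encoding GLAST, and Slc1a2, encoding GLT-1), the intermediate filament of the cytoskeleton (Gfap), the main gap junction protein (Gja1, connexin 43), the water channel of the endfeet (Aqp4), folate and sugar metabolism (Aldh1l1 and Aldoc), a calcium-binding protein (S100b), a transcription factor of glial fate (Sox9) and a secreted growth factor (Ptn, pleiotrophin).

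Promoter sequence was taken for the 3 genes on which the age comparisons turn: Gfap and S100b, which rose between E17 and P7 in Saline and in MIA offspring, and Slc1a3, the most abundant member at P60 and the one to which the others are compared below. The runs are the 250 bases before an annotated start (RefSeq, GRCm38.p6, the same build as the mm10 genome of the table), 5′ to 3′ on the gene's strand, with capitals marking CCAAT or, in Slc1a3, TATAAA, on either strand. Gfap lies at chr11:102887336-102897200, S100b at chr10:76253836-76261319 and Slc1a3 at chr15:8634124-8710807.
Gfap (chr11:102897201-102897450, minus strand): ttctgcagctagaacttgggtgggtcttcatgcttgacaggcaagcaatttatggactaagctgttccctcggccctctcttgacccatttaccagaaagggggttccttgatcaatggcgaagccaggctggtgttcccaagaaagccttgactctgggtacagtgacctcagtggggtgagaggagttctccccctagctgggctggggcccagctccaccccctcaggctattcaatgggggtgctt
S100b (chr10:76253586-76253835, plus strand): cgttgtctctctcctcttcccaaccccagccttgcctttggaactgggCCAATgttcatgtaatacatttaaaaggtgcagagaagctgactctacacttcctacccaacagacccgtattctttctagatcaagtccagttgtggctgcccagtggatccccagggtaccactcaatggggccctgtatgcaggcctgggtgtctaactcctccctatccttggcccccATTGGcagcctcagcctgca
Slc1a3 (chr15:8710808-8711057, minus strand): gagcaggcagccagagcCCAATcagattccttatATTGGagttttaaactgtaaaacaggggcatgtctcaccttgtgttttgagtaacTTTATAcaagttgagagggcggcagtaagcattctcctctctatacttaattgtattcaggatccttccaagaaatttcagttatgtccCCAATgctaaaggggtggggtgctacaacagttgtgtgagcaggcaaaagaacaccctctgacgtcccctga
The Gfap window held none of the motifs searched. The S100b window held CCAAT 2 times, and the Slc1a3 window held it 3 times together with 1 TATAAA. RefSeq windows of 8 of the 10 genes were used, without Sox9 and Aqp4, 9 windows in all. CCAAT was also found in those of Ptn and Aldh1l1. Over 32851 promoters of the same length, 33.8% held CCAAT and 12.4% held TATAAA on either strand. The letters TTCCNGGAA, a STAT recognition sequence, occurred in 1 of the 9 windows, the second of Aldoc, and in 0.913% of all promoters. ACAAAG, a SOX sequence, occurred in none of the 9, against 16.5% of all promoters. These matches describe letters only.

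The summed RNA of the 10 astrocyte genes differed widely between libraries, also within a group. The summed TPM of the 10 genes ran from 345 in a Saline E17 library to 4848 in a MIA + CTRL library, a 14.1-fold range. Within groups the highest sum was 1.23 to 4.17 times the lowest. In Saline offspring the 3 sums were 693, 345 and 535 at E17, 1225, 1479 and 978 at P7, 3363, 1969 and 1715 at P20, and 2337, 4077 and 1311 at P60 + CTRL. In MIA offspring they were 1489, 357 and 943 at E17, 926, 876 and 2683 at P7, 1903, 1550 and 1580 at P20, and 4848, 2963 and 2523 at P60 + CTRL. The P20 sums lay above the P7 sums in Saline offspring, whereas in MIA offspring the third P7 library exceeded every P20 library. The MG-REP sums were 766, 2094 and 2557 in Saline and 2596, 1738 and 2851 in MIA offspring.

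**Figure D1:**
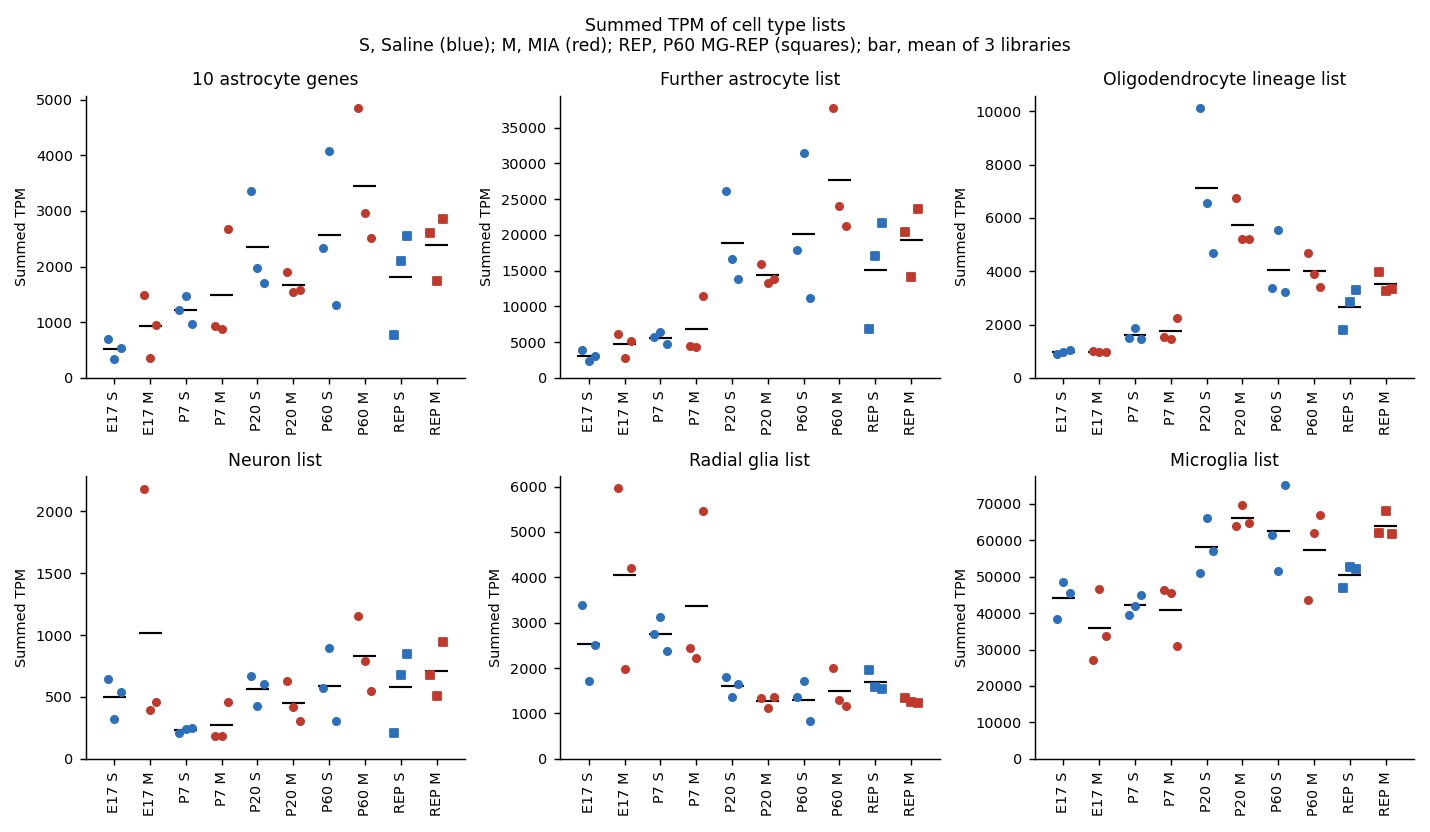
Summed TPM of the 10 astrocyte genes and of 5 other cell type lists (vertical axes) in each library, by group (horizontal axis), with replicates 1 to 3 from left to right and bars at the mean of 3 libraries. Astrocyte sums reached 4848 TPM at P60, while those of 12 microglia genes lay between 27115 and 75174 TPM.

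The defining microglia genes were present throughout: the 12 listed (C1qa, Csf1r, P2ry12 and others) summed to between 27115 and 75174 TPM per library. The reads assigned to the listed transcripts, estimated from the smallest step between TPM values, numbered 7980000 to 12820000 per library, which is not the number sequenced, and at this depth 1 read on a transcript of 1 kb is worth 0.211 to 0.354 TPM. After each group mean was subtracted, the astrocyte sums of the 30 libraries correlated with those of 51 further astrocyte genes (r = 0.98). They also correlated with neuron (r = 0.876), radial glia (r = 0.779), endothelial and mural (r = 0.741) and oligodendrocyte lineage genes (r = 0.732). For choroid plexus and ependyma genes r was 0.553. The correlation was inverse with microglia genes (r = -0.782) and border macrophage genes (r = -0.825), and weakly so with genes listed as reactive in astrocytes (r = -0.282). TPM shares a fixed total, so a rise of one list lowers others in the same library. Some libraries stood apart from their groups: in the first E17 MIA library the neuron list summed to 2183 TPM, against 397 and 460 in the other two, and in the third P7 MIA library the radial glia list summed to 5460 TPM, against 2443 and 2228. The part of these cells in the results below was not tested.

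Within groups the 13 transcripts varied together from library to library. Among the 78 pairs, the correlation of log2(TPM + 1) after removal of group means ran from 0.579 to 0.987 with a median of 0.829 over 30 libraries. Pairs drawn evenly from all expressed transcripts gave a median of 0.0798. With the group means kept in, the 78 correlations ran from 0.0336, for Sox9 with S100b, to 0.982 with a median of 0.74. Transcripts most like the members' mean z-score over the 30 libraries included those of Kcna2, a potassium channel (r = 0.986), Lsamp, a cell adhesion molecule (r = 0.983), Hepacam, an adhesion protein of astrocytes (r = 0.983), and Sgcb, a sarcoglycan (r = 0.980). These are descriptions, and the points share library and depth. The study sorted all transcripts into modules by clustering (k-means) of these same libraries, so membership restates the levels. It placed 10 of the 13 transcripts in its adult microglia module, which held 23.0% of all transcripts. The juvenile module (16.3% of all) took 1 Gfap transcript (NM_001131020). Sox9 and Ptn were in a module named for immature microglia in MIA (19.8% of all).

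**Figure D2:**
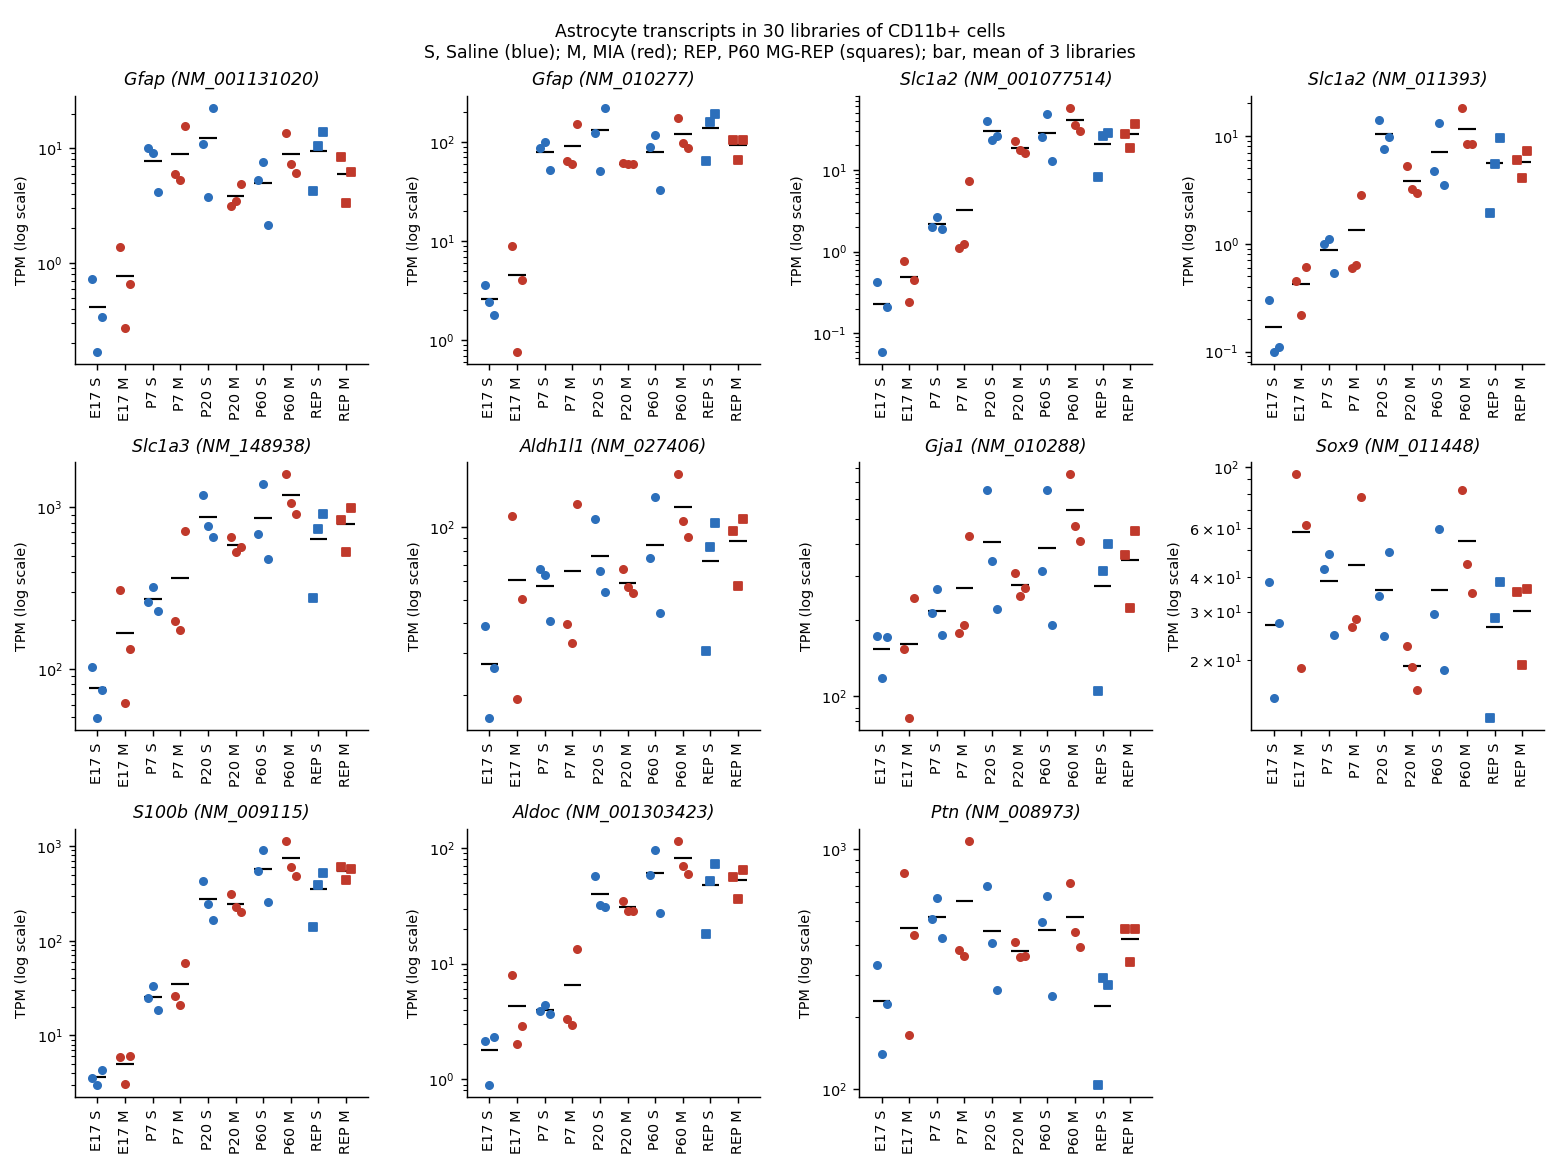
TPM on a log scale (vertical axes) of the 11 transcripts above 0 in all libraries, by group (horizontal axis), with replicates 1 to 3 from left to right and bars at the mean of 3 libraries. S100b climbed from 3.03 to 4.31 TPM in Saline E17 libraries to 256 to 909 TPM at P60 + CTRL, while Sox9 lay between 12.4 and 93.9 TPM over all libraries.

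Slc1a3 (NM_148938), the glutamate transporter of young and mature astrocytes, was the most abundant member from P20 onward. In Saline offspring it was 103, 49.5 and 74.1 TPM at E17, 260, 322 and 229 at P7, 1189, 765 and 653 at P20, and 687, 1397 and 475 at P60 + CTRL. The E17, P7 and P20 libraries did not overlap, whereas P20 and P60 did. In MIA offspring it was 307, 61.6 and 133 TPM at E17, 198, 173 and 717 at P7, 654, 525 and 567 at P20, and 1601, 1063 and 913 at P60 + CTRL. Here E17 overlapped P7 and P7 overlapped P20, through the first E17 and the third P7 library. Of the 9 neighbouring pairs of groups in the order of its means, none was free of overlap.

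Slc1a2, the main glutamate transporter of the mature brain, had 2 rows (chr2:102658239-102790784), which cover 2 of 4 annotated transcripts. The longer one (NM_001077514) was 0.42, 0.06 and 0.21 TPM in Saline E17 libraries, 2.00, 2.63 and 1.87 at P7, 39.6, 23.3 and 25.5 at P20, and 24.9, 47.4 and 12.7 at P60 + CTRL. It stayed below 1 TPM in every E17 library, and every P20 library lay above every P7 library. In MIA offspring it was 0.76, 0.24 and 0.45 TPM at E17, 1.11, 1.23 and 7.38 at P7, 22.4, 17.3 and 16.2 at P20, and 57.2, 35.3 and 29.6 at P60 + CTRL. The shorter one (NM_011393) ran from 0.10 to 18.2 TPM over the 30 libraries. How reads shared by transcripts of one gene were divided is not given in the sources used here, so the rows of a gene are not independent.

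S100b (NM_009115), a calcium-binding protein of maturing astrocytes, had the largest fold increase in group means from E17 to P60 + CTRL of the 13 transcripts. Saline offspring had 3.56, 3.03 and 4.31 TPM at E17, 25.0, 33.4 and 18.6 at P7, 425, 247 and 164 at P20, and 548, 909 and 256 at P60 + CTRL. MIA offspring had 5.89, 3.10 and 6.08 TPM at E17, 26.2, 21.1 and 58.7 at P7, 310, 229 and 203 at P20, and 1136, 603 and 486 at P60 + CTRL. Its levels stepped up without overlap from E17 to P7 and from P7 to P20 in both, and from P20 to P60 in MIA offspring. The mean at P60 + CTRL was 157 times that at E17 in Saline and 148 times in MIA offspring. In TPM Slc1a3 increased by more, from a mean of 75.5 to 853 in Saline and from 167 to 1192 in MIA offspring, against 3.63 to 571 and 5.02 to 742 for S100b.

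Gfap was low at E17, and neither of its rows passed the test for a change after P7. Its main row (NM_010277) was 3.58, 2.41 and 1.81 TPM in Saline E17 libraries, 87.0, 101 and 52.6 at P7, 122, 50.5 and 222 at P20, and 89.3, 118 and 33.2 at P60 + CTRL. In MIA offspring it was 8.96, 0.77 and 4.03 TPM at E17, 64.9, 59.4 and 152 at P7, 60.9, 59.7 and 59.96 at P20, and 176, 97.2 and 87.7 at P60 + CTRL. Postnatal libraries of either kind overlapped between P7 and P60, except that all MIA P20 libraries lay below all MIA P60 + CTRL libraries. The second row (NM_001131020) was lower, between 0.17 and 22.4 TPM, and both rows had their highest value in the third Saline P20 library.

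Aldoc (chr11:78323073-78327781), the brain form of aldolase, rose late. Its main row (NM_001303423) was 2.13, 0.90 and 2.34 TPM in Saline E17 libraries, 3.92, 4.41 and 3.70 at P7, 57.6, 31.9 and 30.9 at P20, and 58.9, 96.2 and 27.7 at P60 + CTRL. In MIA offspring it was 7.93, 2.01 and 2.89 TPM at E17, 3.35, 2.92 and 13.4 at P7, 34.7, 28.8 and 28.8 at P20, and 116, 70.5 and 59.3 at P60 + CTRL. The P7 and P20 libraries did not overlap in either. The second row (NM_009657) was at 0 in 2 E17 libraries and reached 8.82 TPM.

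Gja1 (chr10:56377300-56390419), Aldh1l1 (chr6:90550768-90599171), Sox9 (chr11:112782210-112787757) and Ptn (chr6:36714924-36810179) were already expressed at E17. In Saline E17 libraries Gja1 was 173, 118 and 171 TPM, and at P60 + CTRL it was 314, 650 and 191 TPM. Ptn was 328, 140 and 227 TPM in Saline E17 libraries and 497, 635 and 245 TPM at P60 + CTRL. The groups of Ptn overlapped between these ages and those of Gja1 did not. Aldh1l1, a folate enzyme widely used to mark astrocytes, ran from 16.1 to 166 TPM over all libraries, and Sox9 from 12.4 to 93.9 TPM. Mean Sox9 at P60 + CTRL was 1.34 times that at E17 in Saline offspring and 0.929 times in MIA offspring. Aqp4, the endfoot water channel, was represented by 1 of 9 annotated transcripts (NM_001308647) and never exceeded 1.60 TPM, an estimated 0 to 7 reads per library, so its values carry little weight.

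Between E17 and P7 the transcripts that changed were those of Gfap and S100b in both kinds of offspring, and of Slc1a3 and Aqp4 in Saline offspring. Differences were tested with limma on log2(TPM + 1) across all transcripts, and a transcript was called at a Benjamini-Hochberg adjusted p under 0.05. In Saline offspring 5 of the 13 transcripts rose and none fell, where 3.09% of all transcripts rose. By limma, Gfap rose by 4.47 ± 0.57 (log2 fold change ± SE, adjusted p = 4.17e-05) for NM_010277 and by 2.57 ± 0.51 (adjusted p = 0.00491) for NM_001131020. S100b rose by 2.50 ± 0.47 (limma, adjusted p = 0.00283). Slc1a3 rose by 1.88 ± 0.53 (limma, adjusted p = 0.0458), a call lost when any 1 of the 6 libraries was left out (adjusted p from 0.0564 to 0.189). Aqp4 rose by 0.78 ± 0.22 (limma, adjusted p = 0.0457), a call lost without any one of the E17 libraries or the first or second P7 library. In MIA offspring 3 of 13 rose, against 1.59% of all transcripts: Gfap by 4.25 ± 0.57 (limma, adjusted p = 8.27e-05) and 2.39 ± 0.51 (limma, adjusted p = 0.0113), and S100b by 2.50 ± 0.47 (limma, adjusted p = 0.00365). The second Gfap call was lost without the third P7 MIA library (limma, adjusted p = 0.0589). When only the 6 MIA libraries entered the fit, none of the 13 was called. The median log2 fold change of the members was 1.11 in Saline and 0.60 in MIA offspring, beside 0.05 and -0.02 over all transcripts. Y-linked RNA was 180 to 252 TPM in Saline E17 libraries and 125 to 173 TPM at P7. In MIA libraries it was 199 to 258.5 TPM at E17 and 138, 0.1 and 286 TPM at P7. An E17 library stood for 1 litter and a P7 library for 3 pooled brains. Age, pooling and sex makeup are partly joined in this step, and their parts were not tested.

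Between P7 and P20, S100b, Slc1a2 and Aldoc rose in both kinds of offspring, and Slc1a3 rose in Saline offspring. In Saline offspring 6 of 13 transcripts rose and none fell, against 16.1% of all transcripts that rose. S100b rose by 3.32 ± 0.47 (limma, adjusted p = 7.35e-06). The Slc1a2 rows rose by 3.24 ± 0.47 (limma, adjusted p = 1.21e-05) and 2.58 ± 0.43 (limma, adjusted p = 5.59e-05). The Aldoc rows rose by 2.98 ± 0.51 (limma, adjusted p = 7.91e-05) and 1.59 ± 0.40 (limma, adjusted p = 0.0031). Slc1a3 rose by 1.65 ± 0.53 (limma, adjusted p = 0.0186), a call lost without the first or the third P7 Saline library or the first P20 Saline library (adjusted p from 0.0507 to 0.0831). In MIA offspring 5 of 13 rose, against 13.1% of all transcripts. S100b rose by 2.89 ± 0.47 (limma, adjusted p = 3.82e-05), Slc1a2 by 2.51 ± 0.47 (limma, adjusted p = 0.000215) and 1.13 ± 0.43 (limma, adjusted p = 0.0418), and Aldoc by 2.34 ± 0.51 (limma, adjusted p = 0.000886) and 1.41 ± 0.40 (limma, adjusted p = 0.00748). The smaller Slc1a2 call was lost without the first or second P7 MIA library or any P20 MIA library (adjusted p from 0.0506 to 0.159). Gja1, Aldh1l1, Sox9, Ptn, Gfap and Aqp4 did not pass in either, nor did Slc1a3 in MIA offspring (0.99 ± 0.53, limma, adjusted p = 0.155). The members' median was 0.78 in Saline and 0.17 in MIA offspring, beside -0.02 and -0.09 over all transcripts. Y-linked RNA was 125 to 173 TPM in Saline P7 libraries and 138, 0.1 and 286 TPM in MIA P7 libraries. At P20 it was at most 0.5 TPM in Saline and 0.59 TPM in MIA libraries. A P7 library also pooled 3 brains, where a P20 library held 1. Age, sex and pooling are thus joined in this step, and their parts were not tested.

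**Figure D3:**
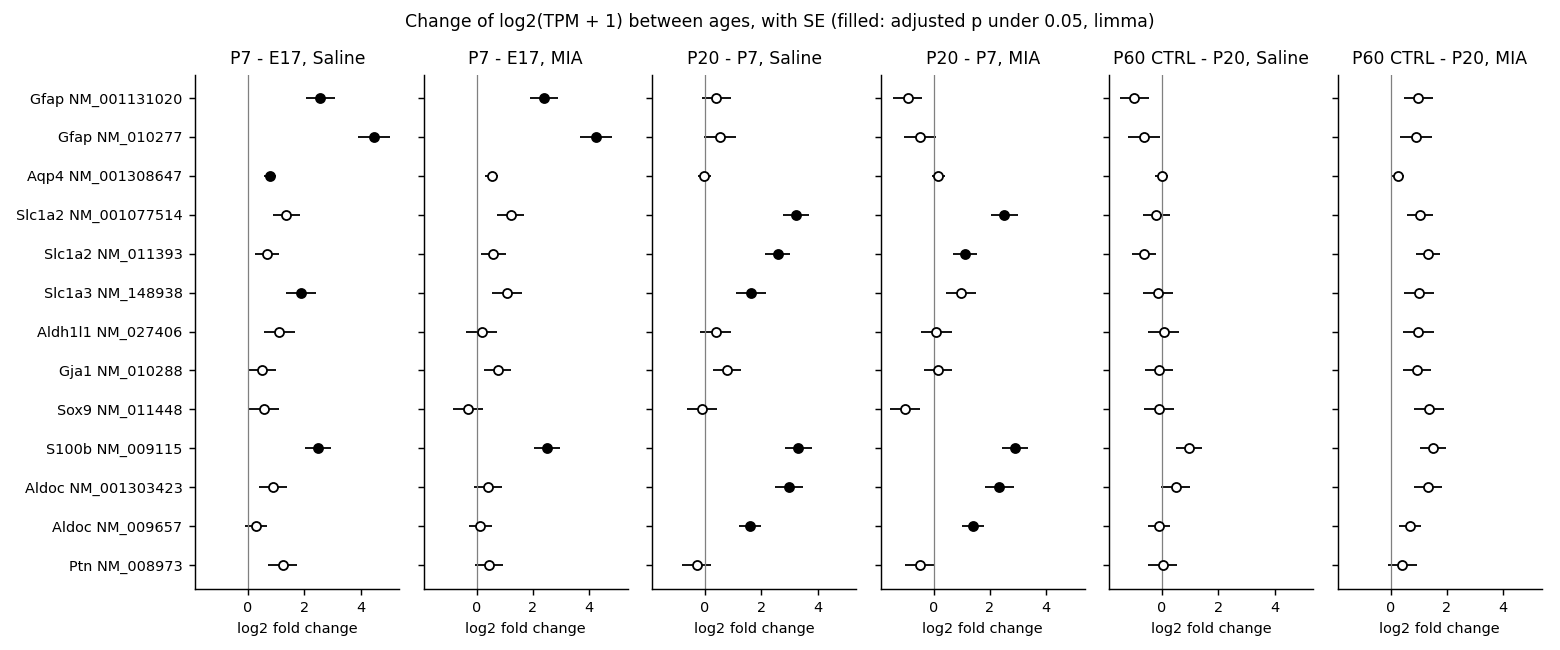
Log2 fold change of log2(TPM + 1) with its SE (horizontal axes) for each of the 13 transcripts (vertical axis) in 6 comparisons between ages, filled where the limma adjusted p was under 0.05. Gfap and S100b are filled from E17 to P7 in both kinds of offspring, and Slc1a3 and Aqp4 in Saline offspring only. From P7 to P20, S100b, Slc1a2 and Aldoc are filled in both, and Slc1a3 in Saline offspring only. None is filled from P20 to P60.

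Between P20 and P60 + CTRL none of the 13 was called in either kind of offspring. In Saline offspring 3.51% of all transcripts were called. No member had an unadjusted limma p under 0.05, where 2334 of 14225 transcripts did (members' median -0.12, beside -0.06 over all transcripts). The smallest p belonged to S100b (0.96 ± 0.47, limma, adjusted p = 0.307), with 0.54 without the second P60 library, 0.64 without the third P20 library and 1.45 without the third P60 library. In MIA offspring 2.6% of all transcripts were called. Here 5 of the 13 members had an unadjusted limma p under 0.05, where 2509 of 14225 transcripts did (median 0.99, beside 0.01). The smallest again belonged to S100b (1.51 ± 0.47, limma, adjusted p = 0.0819). It was called after median-ratio scaling (limma, adjusted p = 0.0486) and after quantile normalization (limma, adjusted p = 0.042). In MIA offspring 12 of the 13 transcripts, all but Ptn, had every P60 library above every P20 library, against 15.6% of all transcripts. In Saline offspring 0 of 13 did, against 6.71%. Some of the 13 rows share a gene and all varied together within groups, so these counts do not rest on independent rows. Whether the step differed between MIA and Saline offspring was not tested. The P20 libraries held Xist and almost no Y-linked RNA, as did the first P60 + CTRL library of each kind, whereas the second and the third came from mice with Y-linked RNA and almost no Xist, so age and sex are partly joined in this step.

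The further astrocyte list followed the same ages. Of its 55 transcripts (51 of 60 genes had a row), 11 rose from E17 to P7 and 35 from P7 to P20 in Saline offspring, with none falling, where 3.09% and 16.1% of all transcripts rose. In MIA offspring 7 rose in the first step, and 24 rose and 4 fell in the second, where 1.59% and 13.1% of all transcripts rose and 22.5% fell in the second. From P20 to P60, 1 fell in Saline and 2 rose in MIA offspring, where 3.51% and 2.6% of all transcripts were called. The largest change from E17 to P7 was that of Gpr37l1, a receptor of astrocytes, from 1.37 ± 0.763 (SD, n = 3) to 81.7 ± 31.4 TPM in Saline offspring. By limma this was a log2 fold change of 5.11 ± 0.52 (adjusted p = 1.6e-06). Ntsr2, a neurotensin receptor, rose by 3.38 ± 0.53 in the same step (limma, adjusted p = 0.000552), and in MIA offspring Gpr37l1 rose by 4.49 ± 0.52 (limma, adjusted p = 1.15e-05) and Gpc5, a glypican, by 2.85 ± 0.52 (limma, adjusted p = 0.00269). From P7 to P20, Fam107a rose by 4.99 ± 0.51 in Saline and 4.66 ± 0.51 in MIA offspring (limma, adjusted p = 8.29e-08 and 2.23e-07). Aldh1a1, which makes retinoic acid, rose by 3.94 ± 0.43 and 3.81 ± 0.43 (limma, adjusted p = 1.97e-07 and 2.99e-07). From P20 to P60 in MIA offspring Ndrg2 rose by 1.52 ± 0.40 (limma, adjusted p = 0.0431) and Rorb, below 1 TPM in the mean, by 0.62 ± 0.14 (limma, adjusted p = 0.015).

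Over the same ages the oligodendrocyte lineage list also rose, by 10 of 22 transcripts from E17 to P7 and 14 of 22 from P7 to P20 in Saline offspring, and by 9 and 14 of 22 in MIA offspring, beside the same shares of all transcripts as above. The radial glia list had 4 of 15 transcripts lower at P20 than at P7 in Saline and 5 of 15 in MIA offspring, where 20.1% and 22.5% of all transcripts fell. The neuron list had 4 of 22 lower at P7 than at E17 in Saline and 6 of 22 in MIA offspring, where 1.23% and 0.801% of all transcripts fell. From P7 to P20 it had 6 higher and 1 lower in Saline and 5 higher and 2 lower in MIA offspring, beside 16.1% and 20.1% of all transcripts higher and lower in Saline and 13.1% and 22.5% in MIA offspring. The part of these cells in the members' changes was not tested.

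Proportions between the members also differed between ages. Each member was divided by Slc1a3 in the same library and is given as TPM per 100 TPM of Slc1a3, a choice made after values were seen. Ptn fell from 319, 283 and 307 in Saline E17 libraries to 197, 194 and 187 at P7 and 59.1, 52.9 and 39.6 at P20. Sox9 went from 37.4, 29.5 and 36.8 to 16.5, 15.1 and 10.8 and then to 2.87, 3.21 and 7.52, and Aldh1l1 from 37.7, 32.5 and 35.1 to 25.7, 19.6 and 17.8 and then to 9.11, 8.58 and 8.26. None of these triplets overlapped the next. The ratio of S100b was 3.46, 6.12 and 5.82 at E17, 9.59, 10.4 and 8.13 at P7, 35.8, 32.2 and 25.1 at P20, and 79.8, 65.1 and 53.8 at P60 + CTRL, again without overlap between ages. The ratio of Gja1 in MIA P20 libraries was 47.1, 47.2 and 47.1, and from P20 onward it stayed between 33.9 and 55.0 in all libraries. These values describe proportions and carry no test.

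**Figure D4:**
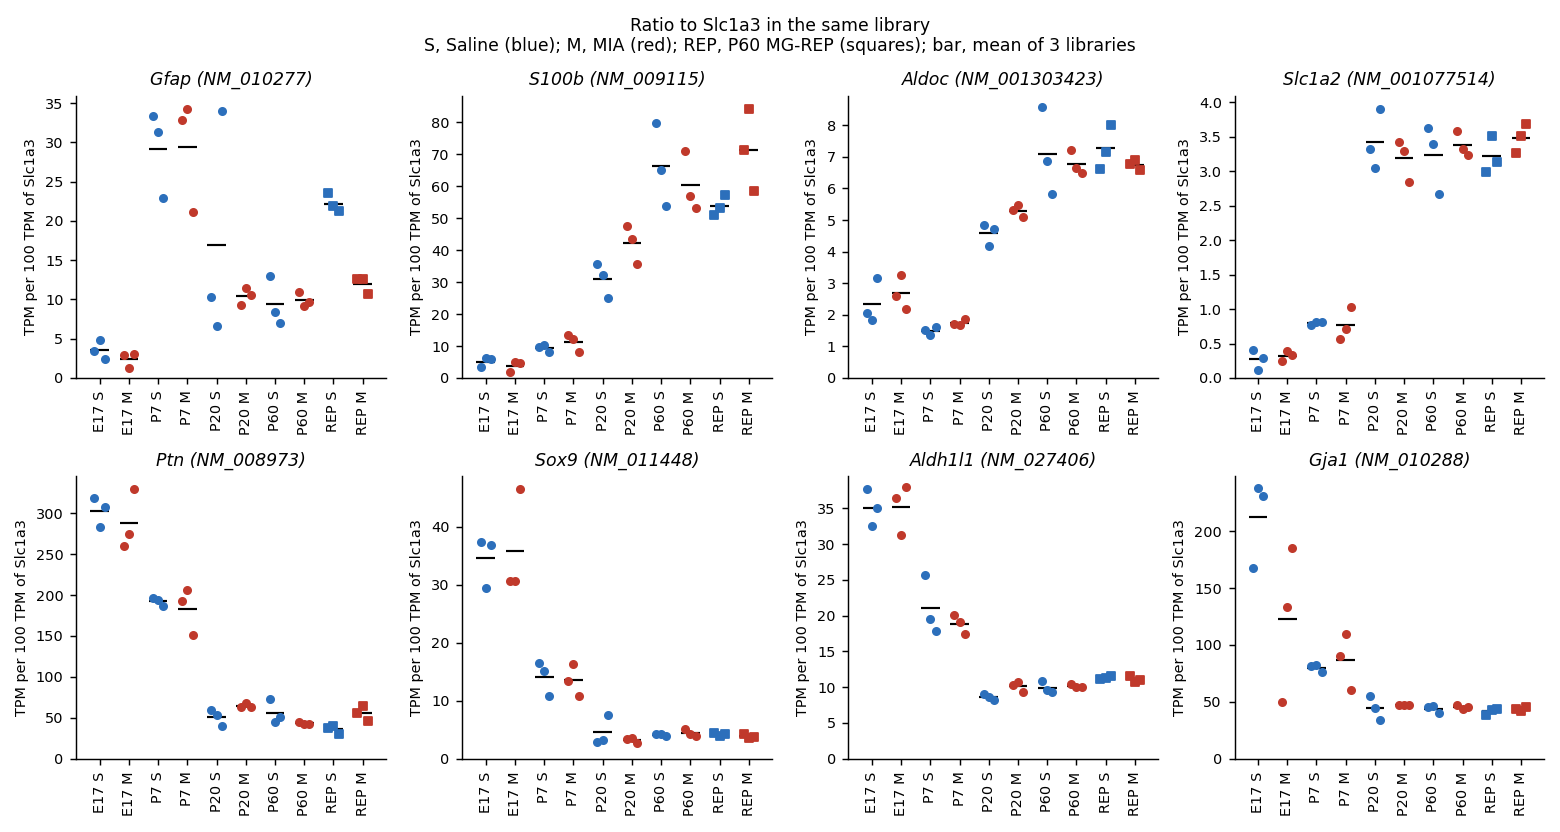
TPM per 100 TPM of Slc1a3 in the same library (vertical axes) for 8 transcripts, by group (horizontal axis), with replicates 1 to 3 from left to right and bars at the mean of 3 libraries. S100b, Slc1a2 and Aldoc are higher and Ptn, Sox9, Aldh1l1 and Gja1 lower in their group means at P20 and P60 than at E17, and Gfap in Saline + MG-REP lies at 21.2 to 23.5, above the 6.98 to 13 of Saline + CTRL.

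No member passed the test for a difference with MIA at any age. At E17 no member was called, where 0% of all transcripts were (585 of 14225 had an unadjusted p under 0.05). The smallest p at E17 was that of Sox9, at 38.5, 14.6 and 27.3 TPM in Saline and 93.9, 18.8 and 61.7 in MIA libraries (0.92 ± 0.54, limma, adjusted p = 0.754). It was 0.44 without the first and 1.57 without the second MIA library, and 0.55 without the second Saline library. At P7 no member was called, against 0% of all transcripts (335 unadjusted), with S100b the smallest p (0.34 ± 0.47, limma, adjusted p = 1), and -0.08 to 0.63 when 1 library was left out, the lowest without the third MIA library. At P20 no member was called, against 0% (457 unadjusted), and 2 members had an unadjusted p under 0.05. Of these Slc1a2 NM_011393 was 13.9, 7.61 and 9.68 TPM in Saline and 5.30, 3.23 and 2.93 in MIA libraries (-1.24 ± 0.43, limma, adjusted p = 1). Both Slc1a2 transcripts and Sox9 had every MIA library below every Saline library at P20, 3 of 13 against 6.23% of all transcripts. These rows are not independent of each other. At P60, MIA + CTRL against Saline + CTRL gave no called member, against 0% (256 unadjusted). There the smallest p was again that of Slc1a2 NM_011393 (0.74 ± 0.43, limma, adjusted p = 1), with 0.39 without the first MIA library, 0.41 without the third Saline library and 1.23 without the second Saline library. The members' median log2 difference was 0.34 at E17, 0.11 at P7, -0.43 at P20 and 0.63 at P60, beside 0.10, 0.03, -0.05 and 0.03 over all transcripts. Every member group overlapped at E17, P7 and P60. With SEs of 0.22 to 0.57 and adjustment over 14225 transcripts, differences of 1 SE and well above it could go uncalled. That of Slc1a2 NM_011393 at P20 (-1.24 ± 0.43) was not called.

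**Figure D5:**
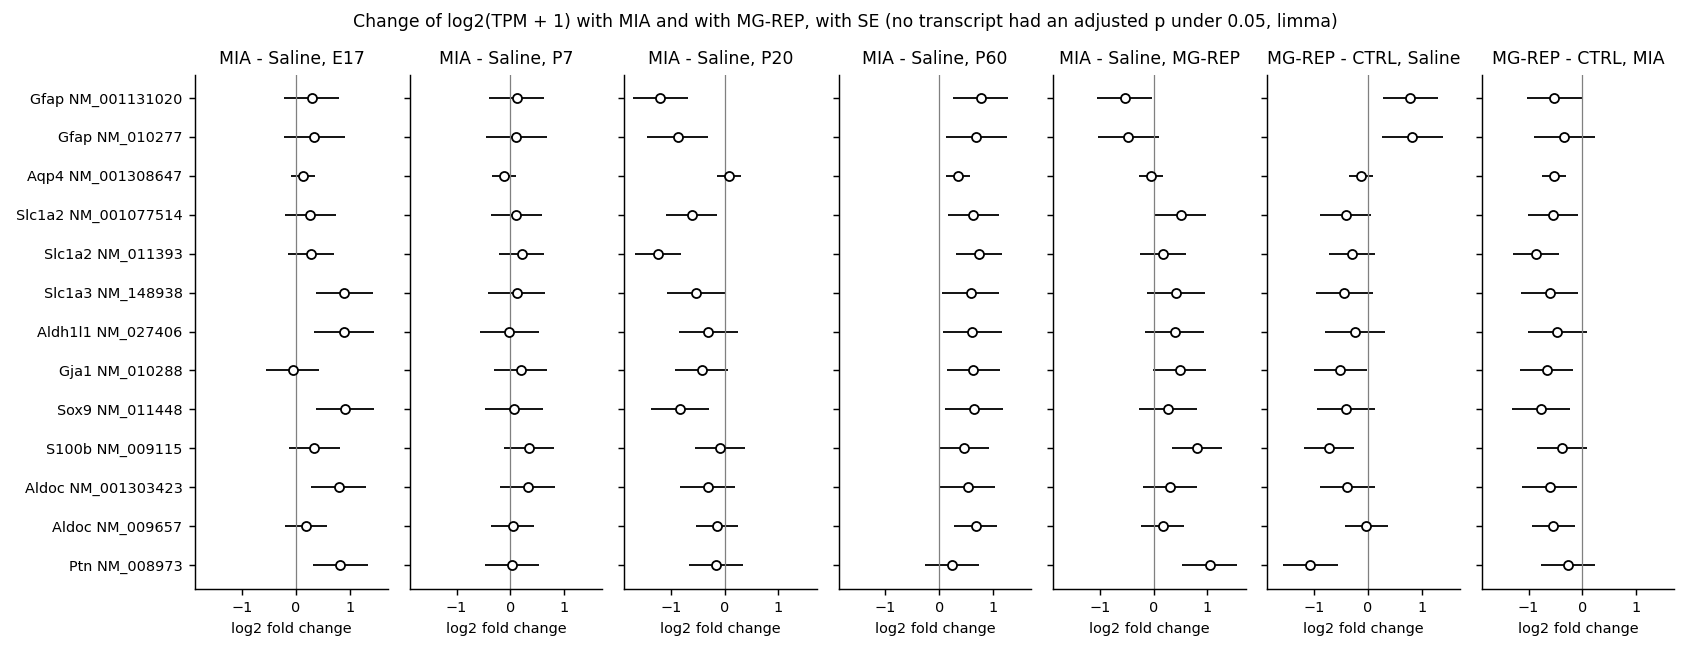
Log2 fold change of log2(TPM + 1) with its SE (horizontal axes) for each of the 13 transcripts (vertical axis) with MIA at 4 ages and after MG-REP, and with MG-REP in each kind of offspring. No transcript had a limma adjusted p under 0.05, and Gfap is on the positive side in Saline MG-REP where Ptn is at -1.07.

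No member passed the test for a difference after microglial repopulation, which many other transcripts did in Saline offspring. In Saline offspring, MG-REP against CTRL called 26.7% of all transcripts and none of the 13. Ptn had the smallest p, at 497, 635 and 245 TPM in CTRL and 105, 289 and 272 in MG-REP libraries (-1.07 ± 0.51, limma, adjusted p = 0.126). Its groups overlapped, and without the first MG-REP library the value was -0.60 (limma, adjusted p = 0.538). Both Gfap rows were on the positive side, NM_010277 at 89.3, 118 and 33.2 TPM in CTRL and 64.5, 160 and 192 in MG-REP libraries (adjusted p = 0.319, limma). The first MG-REP library had the lowest astrocyte sum of its group, 766 TPM. In MIA offspring, MG-REP against CTRL called 0.555% of all transcripts and none of the 13. The smallest p was that of Aqp4, whose few reads gave 1.42, 1.30 and 1.09 TPM in CTRL and 0.79, 0.28 and 0.68 in MG-REP (-0.53 ± 0.22, limma, adjusted p = 0.649). MIA + MG-REP against Saline + MG-REP called 22% of all transcripts and none of the 13. Ptn again had the smallest p, with 105, 289 and 272 TPM in Saline and 463, 338 and 463 in MIA libraries, which did not overlap (1.04 ± 0.51, limma, adjusted p = 0.153). Without the first Saline MG-REP library the log2 difference of Ptn was 0.57 (limma, adjusted p = 0.625). The difference of the MG-REP effect, MIA minus Saline, called 10.5% of all transcripts and none of the 13, with Gfap NM_001131020 the smallest p (-1.31 ± 0.72, limma, adjusted p = 0.299). The members' median was -0.38 in Saline and -0.54 in MIA offspring, beside -0.14 and -0.08 over all transcripts.

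Of the 84 ratios to Slc1a3 compared between groups of one age, 20 had groups that did not overlap, each at an exact permutation p of 0.1 (0.42 adjusted). The share of such ratios over all transcripts was not computed. The 84 share a divisor and reuse the same groups, so this count is a description only. In Saline offspring, MG-REP and CTRL were apart in both Gfap rows (2.34-fold and 2.53-fold in the means), Ptn (0.636-fold) and Aldh1l1 (1.14-fold). In MIA offspring they were apart in Ptn (1.28-fold), Aldh1l1 (1.1-fold) and Slc1a2 NM_011393 (0.771-fold). The rest of the 20 lay between MIA and Saline groups. Among them Ptn was 1.28-fold at P20, 0.768-fold at P60 + CTRL and 1.54-fold between the MG-REP groups, where the Gfap rows were 0.539-fold and 0.504-fold. The ratio of NM_010277 was 13, 8.45 and 6.98 in Saline + CTRL and 23.5, 21.9 and 21.2 in Saline + MG-REP. It was 11, 9.15 and 9.61 in MIA + CTRL and 12.6, 12.6 and 10.7 in MIA + MG-REP, 1.21-fold. The exact tests were two-sided, 0.1 is the smallest p that 3 against 3 allows, and the ratio was chosen after the values were seen. For NM_010277 the MIA + CTRL and MIA + MG-REP ratios overlapped (exact permutation test, p = 0.2, adjusted 0.56). All MG-REP libraries and the first CTRL library of each kind held Xist (124 to 174 TPM) and no Y-linked RNA above 0.66 TPM, whereas the other CTRL libraries held 268 to 318 TPM of Y-linked RNA. The first Saline + CTRL library, the one matched in Xist, had a ratio of 13. Genes listed as reactive in astrocytes summed to 9345, 7580 and 7066 TPM in Saline + MG-REP and to 3156, 2621 and 2798 in Saline + CTRL, but of the 27 transcripts 8 rose, 5 fell and 14 were not called (median log2 fold change -0.05), and some members of that list are also expressed by macrophages (Srgn, Cd14, H2-D1). Border macrophage genes summed to 2373, 1345 and 1341 TPM in Saline + MG-REP and 1197, 904 and 1015 in Saline + CTRL, with 2 of 8 transcripts higher, 1 lower, 5 not called and 4 on the positive side. The part of these in the ratio was not tested. A Gfap ratio of 34.0 also set the third Saline P20 library apart from its group (10.3 and 6.61), and its reactive list summed to 4648 TPM against 2552 and 3004.

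In the further astrocyte list, MG-REP in Saline offspring raised 3 transcripts and lowered 1 of 55 (26.7% of all transcripts called, median of the list -0.35). In MIA offspring none of the 55 was called (0.555% of all), with a median of -0.51. The largest changes were in 2 low-level rows of Apoe, the apolipoprotein that astrocytes and macrophages both make. NM_001305843 went from 1.05 ± 0.531 (SD, n = 3) to 8.78 ± 2.21 TPM, a log2 fold change of 2.27 ± 0.32 (limma, adjusted p = 8.47e-06). NM_001305844 rose by 1.55 ± 0.31 (limma, adjusted p = 0.000444). The difference of the MG-REP effect, MIA minus Saline, was -2.27 ± 0.43 for NM_001305844 (limma, adjusted p = 0.00102) and -1.88 ± 0.46 for NM_001305843 (limma, adjusted p = 0.00811). Between MG-REP groups, the same rows were lower in MIA (-1.80 ± 0.31 and -1.31 ± 0.32, limma, adjusted p = 0.000126 and 0.00464). Another Apoe row, NM_001305819, was lower at P60 + CTRL than at P20 in Saline offspring (-1.19 ± 0.27, limma, adjusted p = 0.0145).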

How the data were processed

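RNA from CD11b+ cells of 30 samples was sequenced as non-stranded, polyA-selected libraries. The authors aligned the reads to the mouse genome (mm10 per the labels), counted them per feature with featureCounts and deposited TPM values per RefSeq transcript with module names; reads shared by transcripts were handled in a way not given in the sources used here, and only transcripts passing a low-count filter of the study are expected in the table. Every per-sample column was matched to a sample by its name. Samples were grouped by their labels, 3 per group in 10 groups. The members and lists were chosen with earlier results of these data known.

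The depth in assigned reads was estimated from the smallest TPM steps and RefSeq transcript lengths (98.45% of transcripts had one). Since 69.1 to 74.5% of low values lay within 0.2 of a whole read, no count test was run. A limma model (version 3.58.1, R 4.3.3) with one mean per group was fitted to log2(TPM + 1) of 14225 transcripts without a low-value filter, with a mean-variance trend, and Benjamini-Hochberg adjustment over all transcripts within each of 14 comparisons (called under 0.05, two-sided). Fold changes on this scale understate those of low transcripts. The fit was tested on simulated data. The libraries are separate litters, pools or brains. The sample labels do not name litters. Whether libraries of a group at P7, P20 or P60 shared a mother is therefore not known, although poly(I:C) or saline was given to the mother. Values were named by rule: all members; each called member, or the smallest p where none was called; the 2 largest called changes of the further astrocyte list per comparison; and the 5 transcripts most correlated with the members, of which 1 is not reported here. Ratios to Slc1a3 were tested with exact permutation tests (scipy 1.17.1).

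Replicate numbers were checked for pairing by correlating deviations from group means. Only at P20 did every same-numbered pair exceed 0.1 (0.245, 0.112 and 0.138). Alternatives changed the pseudocount (0.1), a filter on mean TPM of at least 1, the scaling, the trend, the samples fitted, an Xist covariate, a replicate block and each library left out. Sums per gene symbol and a block across ages were added after the data were seen.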

Additional observations from a re-analysis of the deposited data

How the results depend on the processing

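Over the comparisons and alternatives run, the number of members called stayed within 1.5 times the reported one except as follows. From E17 to P7 in Saline offspring 5 became 3 with the Xist covariate and with a replicate block across ages, and leaving out 1 library gave 3 to 4. From E17 to P7 in MIA offspring 3 became 0 when only the groups compared were fitted, which leaves fewer samples for the spread. From P7 to P20 in MIA offspring 5 became 3 when TPM was summed per gene symbol, where 10 genes are tested in place of 13 transcripts. From P20 to P60 in MIA offspring 0 became 1 with median-ratio scaling, 2 with quantile normalization and 1 when only the groups compared were fitted; the cause was not tested. Fold changes were followed singly for the members called in a comparison, or for the smallest p where none was called. Among these a single direction turned, that of S100b between MIA and Saline at P7. This difference was -0.0828 without the third P7 MIA library, in a range up to 0.6334 over the libraries left out. Other members changed sign with the scaling. In Saline MG-REP against CTRL, 2 members were positive as deposited, 3 after median-ratio scaling and 4 after quantile normalization. The count also moved elsewhere, as in Saline P60 + CTRL against P20 (4, 5 and 5).

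With the replicate block within an age, 0 members were called in every comparison of groups of one age, as without it. This block could not be fitted for comparisons between ages. The sample labels give replicate numbers but no pairing. The correlations at P20 (0.245, 0.112 and 0.138) were weak, and single same-numbered pairs reached 0.671 at E17 and 0.653 at P60. Whether any numbers stand for paired samples is therefore not known. Median-ratio scaling and quantile normalization kept the sign of the members' median in all 14 comparisons. Without a scaling step the median of all transcripts moved by -0.14 in Saline MG-REP and 0.12 between the MG-REP groups, and by -0.05 and 0.05 after median-ratio scaling. Rows with few reads, those of Aqp4 and the second of Aldoc, are limited by depth.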
